A study of Homo sapiens with 24 samples.

Results

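The comparison described here set 22Rv1DR cells that received the second siRNA construct against POM121 beside the same cells that received the first. Its members were chosen by their labels: 8 of the 24 samples of the series, which are 4 of its 12 libraries, each read on 2 lanes. Construct 1 (Silencer Select s59623) is represented by libraries 4B and 5B, and construct 2 (s19145) by libraries 4C and 5C. 22Rv1DR is an aggressive subline of 22Rv1, a human prostate cancer line from ATCC, and all groups were grown in RPMI with serum. The labels write "Knockout" for these samples, but the agent was siRNA, and they say no more of the control libraries (4A and 5A) than Control. The same constructs were given to DU145DR, an aggressive subline of DU145, in 4 further libraries. Nothing says that libraries 4 and 5 of a group came from separate cultures, so every p-value measures only the spread between 2 libraries per group. In the test this spread is pooled over all 6 groups of the series, with the controls and DU145DR included. It is not that of the 4 compared libraries alone.

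POM121 is a transmembrane nucleoporin, one of the proteins that anchor the nuclear pore complex in the nuclear envelope, through which proteins and RNA pass between nucleus and cytoplasm. An siRNA guides the cleavage of transcripts that match it, and can also lower other transcripts that share a short stretch with its seed. For this reason 2 constructs with different sequences are commonly set against 1 target. Transcripts were measured as FPKM (fragments per length of transcript and library size), deposited on the log2 scale with every value of 1 FPKM or less set to 0, called the floor below. Differences are log2 FPKM, construct 2 minus construct 1, with the standard error (SE) of the limma fit, n = 2 libraries per construct, and p-values adjusted over the 13622 symbols tested.

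The construct 2 libraries agreed less with each other than those of any other group. Over 10628 symbols above the floor in every library, the SD of the log2 difference was 0.253 between 4C and 5C, against 0.0877 between 4B and 5B and 0.117 between 4A and 5A. In DU145DR the corresponding SDs ran from 0.134 to 0.162. All 4 compared libraries were read on the same pair of lanes. The number of symbols above the floor was 12361 to 12381 in 4C and 12529 to 12540 in 5C, and depth is unknown because read counts are not given. Transcript length moved with the gap: the median difference of 4C minus 5C was 0.03 for genes under 1000 bases and -0.13 for genes of 3000 to 4000 bases. The part of length or RNA quality in the results was not tested beyond 1 alternative with a length adjustment. Each result below is therefore given for 4C and 5C apart where they differ.

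The labelled cell type was checked against its markers. Of 10 prostate luminal markers 9 were above the floor in all 4 libraries, and ACPP was at 1.11 and 1.03 FPKM in 4B and 5B and listed at 0 in 4C and 5C. The 10 had a summed level of 1129 and 1133 FPKM in 4B and 5B, 830.2 in 4C and 978 in 5C. Among 6 basal markers KRT5, KRT14, KRT15, TP63 and ITGB4 were listed at 0 and DST was at 4.39 to 4.96, and 4 of 4 endothelial markers were at 0. Of 6 markers of DU145, VIM and S100A2 were at 0 in the 4 libraries, while CDH2 was at 2.33 to 2.82, CAV1 at 1.95 to 2.40, and ANXA1 and KRT7 above the floor in some libraries only. Of 8 fibroblast and smooth muscle markers 5 were at 0, and LUM was at 45.3 to 55.3, COL1A1 at 7.65 to 8.95 and ACTA2 at 2.88 to 3.94. Of 7 blood markers PTPRC, CD3E, LYZ and HBB were at 0, and CD68 was at 1.94 to 2.53, but the alpha globin genes HBA1 and HBA2 were at 878 to 1008 and 983 to 1118 FPKM, near their control levels except in 4C. Any part of these genes in the results was not tested.

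POM121 stood at 38.5 and 37.8 FPKM in the control libraries 4A and 5A. With construct 1 it was 7.68 (4B) and 7.81 (5B), and with construct 2 it was 6.73 (4C) and 7.43 (5C). Both construct 2 values lay below both construct 1 values, by a small margin. The difference was -0.13 ± 0.056 (SE, n = 2 libraries per construct), with an adjusted p of 0.153. Leaving out 5C gave -0.20 with an adjusted p of 0.0077, and leaving out 4C gave -0.06 with 0.497. The near-identical paralog POM121C went from 26.3 and 27.0 in the controls to 4.61 and 4.65 with construct 1 and to 4.04 and 4.64 with construct 2, and its construct difference of -0.10 did not pass (adjusted p = 0.378). Because the paralogs share sequence, reads may have been split between them, and both levels are uncertain. The 2 constructs thus left similar levels of the targeted transcript, with 4C slightly lower than the rest.

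Beyond the target, 1577 of 13622 symbols (11.6%) differed between the constructs at an adjusted p under 0.05. Of these, 994 (7.3%) were higher and 583 (4.28%) were lower with construct 2. The split of 63.0% higher depends on scaling: it was 1025 higher and 965 lower when each library was centred on its median, and 1140 and 898 after quantile normalization. Most differences were small, with a median size of 0.34 among called symbols, and 11 symbols were at least 2-fold higher and 6 at least 2-fold lower, leaving out those listed at 0 on some lanes (described below). In 1482 of the called symbols all 4 lanes of construct 2 lay beyond all 4 lanes of construct 1. Over all symbols tested, lanes were separated in this way upward in 14.6% and downward in 13.7%.

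The number of calls hung on single libraries. Without 4B it fell to 170 higher and 53 lower (1.25% and 0.389%), and without 5B to 266 and 49 (1.95% and 0.36%). Without 5C it was 1995 higher and 3988 lower (14.6% and 29.3%), and without 4C 873 and 633 (6.41% and 4.65%), each resting on 1 construct 2 library whose spread is assumed to be that of the other groups. In the full comparison and in both of the latter, 690 symbols were called higher and 316 lower. In 84 symbols 4C and 5C gave calls in opposite directions. Fitted on the 22Rv1DR libraries alone the test called 27 higher and 5 lower, so the count also rests on a spread shared with DU145DR. Genes said below to pass with any 1 library left out did not all pass in that fit. E2F1 (adjusted p = 0.0687) and COPS8 (0.0699) did not, and MCM10 (0.038) and G3BP2 (0.00291) did.

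Symbols listed at 0 on some lanes are described below. Among the other genes with a mean of at least 5 FPKM, the largest upward differences came from genes that were low with construct 1 and closer to the control level with construct 2. G3BP2, a stress granule protein that binds RNA, was at 47.8 and 44.8 FPKM in the controls, 13.4 and 13.9 with construct 1, and 54.7 and 44.3 with construct 2. Its difference was 1.85 ± 0.086 (adjusted p = 8.34e-06), with no overlap between the constructs. C11orf74 was at 14.6 and 12.7 in the controls, 2.49 and 2.07 with construct 1, and 13.6 and 9.96 with construct 2, a difference of 2.36 ± 0.15 (adjusted p = 8.49e-05). UBR1, an N-degron ubiquitin ligase, was at 8.45 and 8.34 in the controls, 2.96 and 3.29 with construct 1, and 8.59 and 6.77 with construct 2 (difference 1.29, adjusted p = 0.000452). In all 3 genes the construct 1 libraries were the lowest, and 4C was the higher construct 2 library. Library 5C lay below both controls, slightly in G3BP2 and more clearly in C11orf74 and UBR1.

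ESYT1, a tether between the endoplasmic reticulum and the plasma membrane, followed the same order: 63.5 and 65.1 in the controls, 24.0 and 25.0 with construct 1, 59.8 and 45.1 with construct 2 (difference 1.09, adjusted p = 0.00103). RFWD3, a ubiquitin ligase that acts at replication forks, was at 17.5 and 17.7, then 7.24 and 7.46, then 15.4 and 12.7 in those groups (0.93, adjusted p = 0.000676). MCFD2, which helps carry cargo from the endoplasmic reticulum to the Golgi, showed the closest construct 2 pair: it was at 13.0 and 13.4 in the controls, 7.51 and 7.82 with construct 1, and 13.4 and 13.6 with construct 2 (0.81, adjusted p = 6.65e-05). LONRF1 was at 7.81 and 7.58, 4.75 and 4.77, and 8.31 and 8.52 (0.82, adjusted p = 0.00164). RAD54L, a motor protein of homologous recombination, was at 10.2 and 10.9, 4.24 and 3.92, and 10.1 and 8.61 (1.19, adjusted p = 0.00103). These 5 genes with G3BP2, C11orf74 and UBR1 were the 8 genes described so far, and all 8 kept their call with any 1 of the 4 libraries left out. The highest adjusted p among them was then 0.0257, without 4B.

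**Figure D1:**
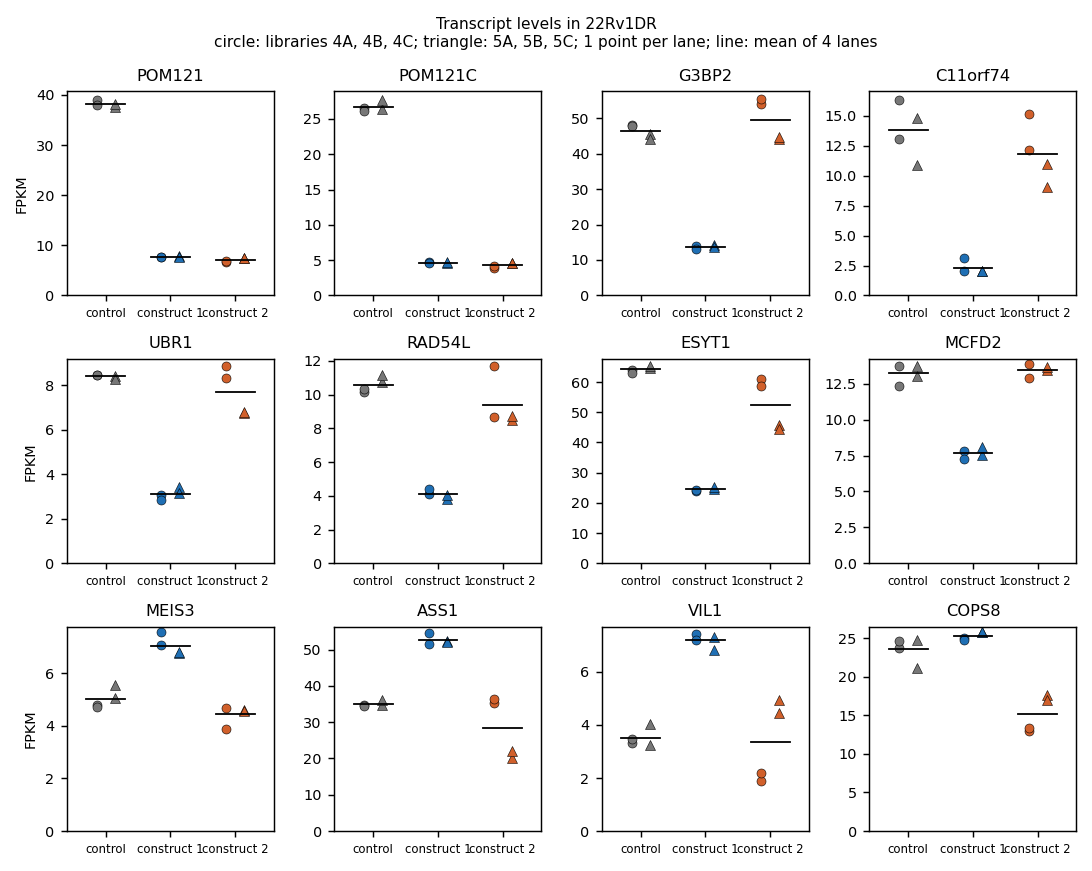
FPKM of POM121, its paralog and 10 genes with a construct difference in 22Rv1DR, by group, with 1 point per lane (circles for libraries 4A, 4B and 4C, triangles for 5A, 5B and 5C) and a line at the mean of the lanes. POM121 and POM121C sit low with both constructs, G3BP2 and the 5 genes after it are lowest with construct 1, and MEIS3, ASS1 and VIL1 are highest with construct 1.

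A second set of upward genes lay above the controls in both construct 2 libraries or close to it. ARMC1 was at 14.5 and 13.4 FPKM in the controls, 7.72 and 8.33 with construct 1, and 22.2 and 15.5 with construct 2 (difference 1.21, adjusted p = 0.00164). TRIQK was at 9.56 and 9.07, 5.69 and 6.13, and 13.1 and 10.2 in the same groups (0.97, adjusted p = 0.00146). CENPW, a centromere protein, was at 23.3 and 23.7, 15.04 and 15.02, and 28.4 and 24.4 (0.81, adjusted p = 0.000774). In these 3 genes construct 1 lay below the controls and construct 2 above them. SIK1, a salt-inducible kinase, was at 5.94 and 6.55, 8.65 and 8.48, and 19.6 and 12.9 (0.89, adjusted p = 0.0096), so that both constructs lay above the controls. TROAP, a spindle-associated protein, was at 44.8 and 69.7 in the controls, 32.4 and 31.2 with construct 1 and 82.6 and 62.7 with construct 2 (1.18, adjusted p = 0.0259). Its lanes disagreed within libraries, with 60.5 and 33.1 in 4A, 22.4 and 46.8 in 4B, and 45.7 and 21.3 in 5B. The lanes of 5A, 4C and 5C were close. The construct 1 means of TROAP, and so its difference, are uncertain.

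ANKHD1, an ankyrin repeat protein, was at 13.7 and 12.4 FPKM in the controls, 13.2 and 13.8 with construct 1 and 29.6 and 27.3 with construct 2, a difference of 1.07 ± 0.10 (adjusted p = 0.00103). The readthrough transcript ANKHD1-EIF4EBP3 moved the other way, from 9.93 and 10.1 with construct 1 to 6.23 and 6.93 with construct 2 (-0.61, adjusted p = 0.0465). The 2 symbols share exons, so their reads can be split between them and both values are uncertain. Left-out libraries ended some of these calls. TROAP and SIK1 did not pass without 4B or without 5B (highest adjusted p 0.12), TROAP did not pass without 4C (adjusted p = 0.14), and SIK1 was at 0.59 without 4C. ANKHD1-EIF4EBP3 lost its call when any library but 5C was left out. ARMC1, ANKHD1, TRIQK and CENPW kept their call in each case. Fitted on the 22Rv1DR libraries alone, ANKHD1 (adjusted p = 0.00935) and CENPW (0.036) passed, and ARMC1 (0.0633) and TRIQK (0.0591) did not.

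Called symbols included 10 that were listed at 0 on some lanes of 22Rv1DR and at a log2 FPKM of 3 or more on others, for which no fold can be given. RFC4, a subunit of the clamp loader of DNA replication, was at 41.9 and 44.4 FPKM in the controls and at 41.4 and 35.9 with construct 2, and was listed at 0 with construct 1 on every lane. ACAT2, a cytosolic thiolase of cholesterol synthesis, was listed at 0 in the controls and with construct 1 and was at 32.9 and 30.5 with construct 2. TLCD1, a membrane lipid regulator, was at 34.7 and 36.7 in the controls, 35.2 and 33.6 with construct 1, and listed at 0 with construct 2. GNG13, a G protein gamma subunit, was at 8.13 and 8.79 with construct 1 and listed at 0 elsewhere in the line. These 4 were picked out after their values were seen. A listed 0 can be an estimate that was not made as well as low expression, and the table does not tell these apart.

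Among the genes that were lower with construct 2, several were above the controls in both construct 1 libraries. VIL1, the microvillus protein villin, was at 3.38 and 3.61 FPKM in the controls, 7.32 and 7.07 with construct 1, and 2.03 and 4.71 with construct 2 (difference -1.22, adjusted p = 0.0331), with 4C below the controls and 5C above them. ASS1, argininosuccinate synthase of arginine formation, was at 34.6 and 35.4, 53.005 and 52.2, and 35.8 and 21.1 (-0.94, adjusted p = 0.0183). Here 5C and not 4C was the lower library.

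PBLD was at 8.89 and 8.77 FPKM in the controls, 13.7 and 13.8 with construct 1 and 7.37 and 10.7 with construct 2 (difference -0.63, adjusted p = 0.0233). MEIS3, a homeobox factor, was at 4.75 and 5.31, 7.31 and 6.78, and 4.26 and 4.59 (-0.67, adjusted p = 0.00178). WDR45, an autophagy protein, was at 9.69 and 9.81, 11.5 and 11.2, and 8.29 and 6.29 (-0.66, adjusted p = 0.00873). Of VIL1, ASS1, PBLD, MEIS3 and WDR45, only MEIS3 passed without 4B and without 5B (highest adjusted p among the 5: 0.157). All 5 passed without 4C and without 5C, at changed sizes: without 4C the differences were -0.61 for VIL1 and -0.37 for PBLD, and without 5C that of ASS1 was -0.56.

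Other lower genes were below the controls in both construct 2 libraries. COPS8, a subunit of the COP9 signalosome, was at 24.2 and 22.9 FPKM in the controls, 24.9 and 25.8 with construct 1, and 13.2 and 17.3 with construct 2, a difference of -0.75 ± 0.10 (adjusted p = 0.00396). It was low with construct 2 only, and it passed with any 1 library left out. DDC, the decarboxylase of aromatic amino acids, was at 37.4 and 37.9, 40.3 and 40.6, and 21.5 and 33.2 (-0.60, adjusted p = 0.0373). CHRNA2, a nicotinic receptor subunit, was at 6.63 and 6.65, 7.40 and 7.86, and 3.58 and 5.68 (-0.76, adjusted p = 0.0219). The gap between 4C and 5C was wide in both, with 4C the lower.

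UGT2B7, a glucuronosyltransferase, was at 6.84 and 6.28 FPKM in the controls, 7.80 and 8.53 with construct 1 and 4.64 and 6.19 with construct 2 (difference -0.60, adjusted p = 0.0153). PSKH1, a serine kinase, was at 6.92 and 6.91, 7.98 and 8.14, and 4.04 and 6.10 (-0.70, adjusted p = 0.0227). NCOA5, a nuclear receptor coactivator, was at 10.6 and 10.8, 7.71 and 8.14, and 3.72 and 6.31 (-0.71, adjusted p = 0.0405), so both constructs lay below the controls. ALDH7A1, an aldehyde dehydrogenase of lysine breakdown, was at 8.39 and 8.24, 7.23 and 7.52, and 5.81 and 3.97 (-0.62, adjusted p = 0.0251). LGALS2, a galectin, was at 13.3 and 17.0, 16.5 and 18.1, and 8.52 and 13.2 (-0.70, adjusted p = 0.0431). None of DDC, CHRNA2, UGT2B7, PSKH1, NCOA5, ALDH7A1 and LGALS2 passed without 4B or without 5B (highest adjusted p 0.207), and LGALS2 did not pass without 4C either. With 5C as the only construct 2 library the differences were -0.29 for DDC, -0.43 for CHRNA2, -0.40 for PSKH1, -0.40 for UGT2B7, -0.38 for LGALS2 and -0.33 for NCOA5. With 4C as the only one they were -0.91 for DDC, -1.09 for NCOA5 and -0.34 for ALDH7A1.

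DNA replication was 1 of 3 processes, with mitosis and DNA repair, in which most measured genes differed. Before a cell divides, origin factors such as ORC1, CDC6 and CDT1 load the MCM helicase on DNA, CDC45 and GINS start it, and polymerases with the sliding clamp PCNA copy the strands. E2F transcription factors, restrained by the retinoblastoma protein, turn on most of these genes as cells enter S phase. Of 50 replication and E2F target genes tested, 35 were higher with construct 2, against 7.3% of all symbols, and 0 were lower, against 4.28%. The list median was 0.36, with 0.40 in 4C and 0.33 in 5C, against -0.01 for all symbols. Against the controls, which both constructs share, the median of the list was -0.78 with construct 1 and -0.38 with construct 2. The 35 include RFC4, which was listed at 0 with construct 1. In bulk RNA, fewer cells in a phase of the cycle and less RNA per cell cannot be told apart. In 45 of the 50 genes both construct 2 libraries lay above the mean of the construct 1 libraries, against 3952 of 13622 symbols (29%).

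E2F1 was at 20.7 and 22.3 FPKM in the controls, 11.9 and 11.5 with construct 1, and 17.8 and 15.9 with construct 2. Its difference was 0.52 ± 0.066 (adjusted p = 0.0028), and construct 2 lay between construct 1 and the controls. E2F2 was at 11.9 and 12.9, 7.07 and 7.14, and 9.78 and 9.88 in those groups (0.47, adjusted p = 0.00178). MCM10, which helps start the helicase, was at 13.5 and 13.3, 5.82 and 6.05, and 10.4 and 9.26 (0.72 ± 0.057, adjusted p = 0.000452). CDC6 was at 25.8 and 26.2, 12.7 and 13.3, and 20.7 and 19.1 (0.61, adjusted p = 0.000595). MCM4, a helicase subunit, was at 58.3 and 55.6, 27.5 and 28.7, and 40.0 and 37.9 (0.47, adjusted p = 0.00103). In each of the 5 genes the order was control, construct 2, construct 1, with no overlap between any of the groups.

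The other origin and fork genes held the same order. ORC1 was at 8.43 and 8.70 FPKM in the controls, 4.31 and 3.95 with construct 1 and 5.89 and 5.96 with construct 2 (difference 0.52). CDC45 was at 26.4 and 27.4, 13.4 and 12.9, and 19.6 and 17.6 (0.50). CDT1 was at 34.2 and 35.3, 21.9 and 22.4, and 31.8 and 30.8 (0.50). PCNA was at 205 and 194, 113 and 115, and 164 and 148 (0.45). DTL, the adaptor that marks CDT1 for destruction, differed from the rest in that 4C reached the controls: it was at 12.2 and 11.7, 7.22 and 7.50, and 12.6 and 10.6 (0.65). The ribonucleotide reductase subunit RRM1 was at 66.3 and 64.1, 39.3 and 40.7, and 50.7 and 50.3 (0.34). Adjusted p-values of these 6 genes ran from 0.00152 to 0.0123. E2F2, ORC1, CDC45, CDT1, PCNA, DTL and RRM1 were chosen for their roles after values were seen.

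Cyclins, their kinases (CDKs) and the CDK inhibitors formed a list of their own. Of 25 such genes, 5 were higher with construct 2 and 0 lower, against 7.3% and 4.28% of all symbols, with a median of 0.11. CDC25A, the phosphatase that activates CDK2, was at 7.75 and 7.77 FPKM in the controls, 4.28 and 4.01 with construct 1, and 6.92 and 6.68 with construct 2 (difference 0.72, adjusted p = 0.000316). CDK2 was at 82.0 and 81.5, 61.6 and 63.1, and 81.9 and 76.6 (0.35, adjusted p = 0.00459), and CCND3 (cyclin D3) at 33.6 and 36.0, 23.2 and 21.4, and 29.9 and 30.4 (0.44, adjusted p = 0.00533). CDK2 with construct 2 thus reached the control level in 4C. CDK2 did not pass without 4B, and CCND3 did not pass without 5B. Fewer members of the list passed when either construct 1 library was left out. The list median was 0.12 in 4C and 0.10 in 5C.

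The replication count fell when a construct 1 library was left out and rose when a construct 2 library was left out. It was 19 of 50 higher without 4B, 22 without 5B, 38 (and 1 lower) without 4C and 41 without 5C, against 1.25%, 1.95%, 6.41% and 14.6% of all symbols. With 22Rv1DR fitted alone it was 4, with library weights 10. Of the replication genes named above, PCNA did not pass without 4B (adjusted p = 0.094) or without 5B (0.0749), and the others kept their call in each case. The length-adjusted count was 37. A left-out library also changes the spread that the test uses, so these counts do not show which libraries the differences depended on. The difference of MCM10 was 0.69 or 0.75 with 4B or 5B left out, and 0.64 or 0.81 with 4C or 5C left out. That of ORC1 moved more with the construct 1 libraries (0.59 or 0.46, against 0.53 or 0.51), as did that of RRM1.

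The promoters of this list were searched for the E2F site letters TTTCCCGC, TTTCGCGC, TTTGCCGC and TTTGGCGC on either strand. The windows were the 250 bases before the RefSeq start site (GRCh38.p14). A match was found in 16 of the 42 replication genes with a promoter entry, or 38.1%, against 4.52% of the 10649 tested symbols with an entry and 2.79% of all 27305 promoters. Among members called higher it was 13 of 30, and among the others 3 of 12. The list was drawn up to hold E2F targets, so its excess over all symbols says nothing about the constructs. To show where the letters lie, 2 called members with a match and a small adjusted p are printed 5′ to 3′ on the gene's strand, with the match in capitals. Members on a left-out chromosome and those listed at 0 on some lanes were not open to this choice. The match lies 34 bases before the start of E2F2 (chr1:23531234-23531483, reverse strand) and directly before that of DTL (chr1:212035498-212035747, forward strand). A match describes the sequence, and no binding was measured.
E2F2: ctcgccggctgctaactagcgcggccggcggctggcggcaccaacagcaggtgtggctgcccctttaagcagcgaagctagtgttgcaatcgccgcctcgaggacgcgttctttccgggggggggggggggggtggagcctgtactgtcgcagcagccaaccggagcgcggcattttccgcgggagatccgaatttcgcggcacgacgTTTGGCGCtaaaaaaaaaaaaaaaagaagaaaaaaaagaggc
DTL: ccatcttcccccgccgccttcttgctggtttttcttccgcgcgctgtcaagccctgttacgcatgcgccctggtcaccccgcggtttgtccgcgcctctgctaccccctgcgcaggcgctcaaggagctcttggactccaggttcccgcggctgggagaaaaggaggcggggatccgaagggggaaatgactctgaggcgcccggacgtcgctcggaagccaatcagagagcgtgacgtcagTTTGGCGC

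Genes of mitosis showed a pattern of the same size. In mitosis, cyclins A and B with CDK1 drive entry, kinetochore and spindle proteins attach and move the chromosomes, the checkpoint kinases BUB1 and BUB1B delay separation until all are attached, and anillin shapes the cleavage furrow. Of 45 genes tested, 32 were higher with construct 2 and 0 lower, against 7.3% and 4.28% of all symbols. The median was 0.34 (0.39 in 4C and 0.30 in 5C). Against the shared controls it was -0.59 with construct 1 and -0.25 with construct 2.

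CCNA2 (cyclin A2) was at 40.5 and 39.4 FPKM in the controls, 28.1 and 29.03 with construct 1, and 43.4 and 41.2 with construct 2. Its difference was 0.57 ± 0.045 (adjusted p = 0.000452), and construct 2 lay above the controls in both libraries. CCNB1 (cyclin B1) was at 93.0 and 92.9, 56.4 and 57.9, and 82.0 and 75.7 (0.46, adjusted p = 0.00145), below the controls with either construct. CDK1, their kinase partner, was at 76.9 and 68.5, 56.3 and 56.3, and 104 and 81.1 (0.71, adjusted p = 0.0056), and like CCNA2 exceeded the controls. ANLN (anillin) was at 38.3 and 37.1, 29.2 and 30.4, and 41.5 and 40.8 (0.47, adjusted p = 0.000766). BUB1 was at 25.3 and 25.3, 17.7 and 18.1, and 24.2 and 23.6 (0.42, adjusted p = 0.00124).

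BUB1B was at 32.0 and 30.7 FPKM in the controls, 18.7 and 18.9 with construct 1, and 24.0 and 23.9 with construct 2, a difference of 0.35 ± 0.041 (adjusted p = 0.00199). NUSAP1, a spindle microtubule protein, was at 63.4 and 61.2, 44.5 and 46.6, and 67.1 and 60.2 (0.48, adjusted p = 0.00183). HMMR was at 24.3 and 22.8, 15.5 and 16.3, and 22.4 and 21.5 (0.46), and DLGAP5 at 13.9 and 13.5, 10.4 and 10.9, and 14.9 and 13.8 (0.43), both spindle assembly factors. Not every mitotic gene differed: PLK1, polo-like kinase 1, was at 57.9 and 57.2 in the controls, 35.3 and 36.5 with construct 1 and 38.7 and 38.8 with construct 2 (0.11 ± 0.043, adjusted p = 0.127). NUSAP1, CDK1, BUB1B, HMMR, DLGAP5 and PLK1 were picked out after their values were seen.

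The mitotic count was 13 of 45 higher without 4B, 18 without 5B, 32 (and 1 lower) without 4C and 40 without 5C. Among 22Rv1DR libraries alone it was 1, with library weights 11. CDK1 did not pass without 4B (adjusted p = 0.0547), and the other called mitotic genes named here passed with any 1 library left out.

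**Figure D2:**
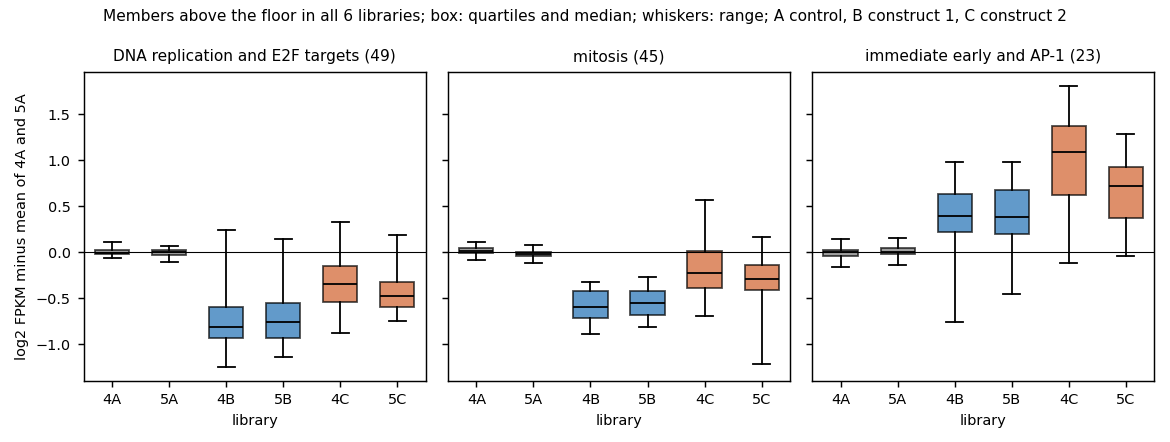
Log2 FPKM of list members minus the mean of the control libraries, for each of the 6 libraries of 22Rv1DR, over members above the floor in all 6 (boxes: quartiles and median; whiskers: range). Replication and mitosis genes sit lowest in the construct 1 libraries 4B and 5B and between these and the controls in 4C and 5C, while immediate early genes sit highest in 4C.

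Many mitotic promoters carry the cell cycle genes homology region, whose letters TTTGAA were searched on either strand in the same windows. A match was found in 22 of 39 mitosis genes with an entry (56.4%), against 7.96% of tested symbols with an entry and 13.6% of all promoters. Of the called members 17 of 28 held one, and of the others 5 of 11. The list was gathered by function in mitosis, so its excess over all symbols says nothing about the constructs either. The windows of ANLN (chr7:36389612-36389861, forward strand) and BUB1B (chr15:40160819-40161068, forward strand) are shown by the same choice as for the E2F site, with the matches in capitals. In ANLN 2 adjacent matches on opposite strands end 20 and 14 bases before the start, and in BUB1B 1 match ends 17 bases before it.
ANLN: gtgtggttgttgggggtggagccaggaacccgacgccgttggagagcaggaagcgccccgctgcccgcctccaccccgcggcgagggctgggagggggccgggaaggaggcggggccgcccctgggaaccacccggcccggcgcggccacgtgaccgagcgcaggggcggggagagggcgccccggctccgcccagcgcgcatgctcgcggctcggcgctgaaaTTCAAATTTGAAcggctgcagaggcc
BUB1B: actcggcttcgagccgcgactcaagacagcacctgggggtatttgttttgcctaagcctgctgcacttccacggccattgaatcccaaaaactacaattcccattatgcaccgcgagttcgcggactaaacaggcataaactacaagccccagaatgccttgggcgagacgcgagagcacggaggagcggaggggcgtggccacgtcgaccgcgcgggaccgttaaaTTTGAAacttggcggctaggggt

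DNA repair genes, many of which act on replicating DNA, were the third list in which most members differed. Of 32 repair and Fanconi anemia genes 20 were higher with construct 2 and 0 lower, against 7.3% and 4.28% of all symbols, with a median of 0.28 (0.25 in 4C and 0.27 in 5C). EXO1, an exonuclease that resects DNA ends, was at 13.5 and 12.7 FPKM in the controls, 7.05 and 6.84 with construct 1, and 11.9 and 10.7 with construct 2 (difference 0.70 ± 0.065, adjusted p = 0.000863). CHEK1, the checkpoint kinase of stalled forks, was at 15.02 and 13.8, 8.91 and 9.27, and 12.9 and 12.5 (0.48, adjusted p = 0.00146). Its mediator CLSPN (claspin) was at 5.62 and 5.20, 2.42 and 2.58, and 3.73 and 3.47 (0.52, adjusted p = 0.00253). BRCA1 moved less, with 14.0 and 14.1, 7.51 and 7.39, and 8.73 and 9.41 (0.28, adjusted p = 0.013). BRCA1 was chosen after its value was seen.

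The repair count was 5 higher without 4B, 6 without 5B, 14 higher and 2 lower without 4C, and 20 higher and 2 lower without 5C, where 1.25%, 1.95%, 6.41% and 14.6% of all symbols were higher. BRCA1 did not pass without 4B (adjusted p = 0.0817) or without 5B (0.0874), and EXO1, CHEK1, CLSPN and RAD54L passed with any 1 library left out.

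Immediate early genes, the transcription factors and regulators that growth factors and stress switch on within minutes, stood on the other side of the controls from the cell cycle lists: their median was above the controls with construct 1 and higher again with construct 2. Of 26 tested, 13 were higher with construct 2 and 0 lower, against 7.3% and 4.28% of all symbols. The list median was 0.38, with 0.52 in 4C and 0.20 in 5C. Against the shared controls the median was 0.36 with construct 1 and 0.81 with construct 2. NR4A1, an orphan nuclear receptor, was at 6.68 and 7.46 FPKM in the controls, 11.9 and 11.8 with construct 1, and 24.6 and 17.2 with construct 2 (difference 0.80 ± 0.14, adjusted p = 0.0107). FOS was at 5.98 and 5.77, 9.30 and 9.90, and 20.0 and 12.7 (0.73, adjusted p = 0.0259), and EGR1, a zinc finger factor, at 14.2 and 13.9, 21.1 and 21.6, and 38.8 and 26.6 (0.59, adjusted p = 0.036).

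JUNB, a partner of FOS in AP-1, had the closest construct 2 pair, with 61.7 and 63.9 FPKM in the controls, 92.2 and 90.9 with construct 1, and 127 and 115.9 with construct 2 (difference 0.41, adjusted p = 0.00681). The Krüppel-like factor KLF6 was at 4.31 and 4.30, 5.41 and 5.59, and 9.52 and 7.08 (0.58, adjusted p = 0.0145). KLF2 was near the floor outside construct 2, with 1.23 and 1.43, 1.58 and 1.53, and 3.96 and 3.0 (1.15, adjusted p = 0.00386). JUN, with 30.9 and 30.6, 57.6 and 57.1, and 79.7 and 60.5, did not pass (0.28, adjusted p = 0.115). FOS, EGR1 and JUN were chosen after their values were seen.

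The median difference of this list was larger in 4C than in 5C, and its count fell most when a construct 1 library was left out. The count was 1 when either construct 1 library was left out, 20 without 5C (14.6% of all symbols), 9 without 4C (6.41%) and 0 with 22Rv1DR fitted alone. NR4A1, FOS, EGR1, KLF6 and JUNB did not pass without 4B or without 5B (highest adjusted p 0.177), and KLF2 passed in each case. With 5C as the only construct 2 library the difference was 0.40 for FOS, 0.36 for KLF6 and 0.32 for EGR1, and EGR1 did not pass (adjusted p = 0.0686).

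**Figure D3:**
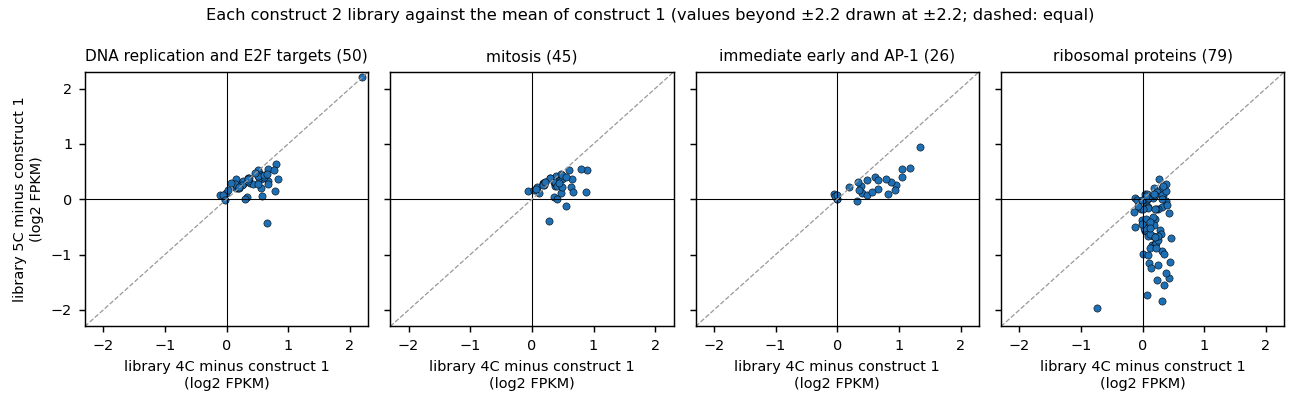
Difference of library 4C (horizontal) and of library 5C (vertical) from the mean of the construct 1 libraries, in log2 FPKM, for members of 4 lists, with the line of equal values dashed. Replication and mitosis genes lie near the diagonal in the upper right, immediate early genes lie below it, and ribosomal protein genes spread downward in 5C at small positive values in 4C.

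Genes of cholesterol synthesis, which the factor SREBP2 turns on when sterols are scarce, were mixed. Of 28 tested, 7 were higher with construct 2 and 2 lower, against 7.3% and 4.28% of all symbols, with a median of 0.06. When either construct 1 library was left out 1 was higher and 0 lower, without 4C 8 and 1, and without 5C 13 and 4, where 14.6% of all symbols were higher and 29.3% lower. ACAT2 is among the 7. INSIG1, which holds SREBP in the endoplasmic reticulum and is itself a sterol-regulated gene, was at 14.8 and 14.8 FPKM in the controls, 16.4 and 16.4 with construct 1, and 41.7 and 23.5 with construct 2 (difference 0.93 ± 0.20, adjusted p = 0.023). HMGCS1, the synthase of HMG-CoA, was at 24.2 and 22.5, 25.8 and 27.0, and 46.6 and 31.7 (0.54, adjusted p = 0.0367). In both construct 1 lay slightly above the controls and 4C was the higher construct 2 library.

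SQLE (squalene epoxidase) was at 14.4 and 14.3 FPKM in the controls, 13.0 and 13.6 with construct 1, and 19.1 and 15.6 with construct 2 (difference 0.38, adjusted p = 0.0251). EBP, a sterol isomerase, was at 84.3 and 85.4, 58.9 and 58.6, and 83.3 and 73.2 (0.41, adjusted p = 0.00743). The lanosterol synthase LSS went the other way, with 19.0 and 19.3, 16.5 and 16.4, and 13.9 and 14.2 (-0.23, adjusted p = 0.0411), as did the sterol reductase TM7SF2, with 45.5 and 47.4, 65.8 and 64.6, and 44.2 and 57.4 (-0.37, adjusted p = 0.045). HMGCS1, LSS and TM7SF2 were chosen after their values were seen. None of INSIG1, HMGCS1, SQLE, EBP, LSS and TM7SF2 passed without 4B or without 5B (highest adjusted p 0.203), and LSS and TM7SF2 did not pass without 4C. With 5C as the only construct 2 library the differences were 0.51 for INSIG1, 0.26 for HMGCS1, 0.24 for SQLE and -0.19 for TM7SF2. With 4C as the only one they were 0.82 for HMGCS1 and -0.56 for TM7SF2.

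Chaperones of the endoplasmic reticulum, which fold secreted proteins, gave 6 of 30 higher and 0 lower, against 7.3% and 4.28% of all symbols, with a median of 0.07. The count was 0 without 4B, 3 without 5B, 6 (and 2 lower) without 4C and 13 (and 4 lower) without 5C, where 14.6% of all symbols were higher and 29.3% lower. MANF was at 215 and 205 FPKM in the controls, 158 and 164 with construct 1, and 232 and 203 with construct 2 (difference 0.43, adjusted p = 0.00636). PDIA4, a disulfide isomerase, was at 200.2 and 205, 152 and 158, and 213 and 189.6 (0.37, adjusted p = 0.00577). SDF2L1 was at 101 and 99.7, 71.5 and 75.6, and 90.4 and 91.7 (0.31, adjusted p = 0.00741). HERPUD1, a factor of protein disposal from this compartment, was at 41.8 and 43.2, 44.6 and 46.2, and 75.7 and 57.6 (0.54, adjusted p = 0.0128). In the first 3 construct 1 was below the controls, and in HERPUD1 construct 2 was above the rest. None of the 4 passed without 4B, and HERPUD1 did not pass without 5B. Without 4C HERPUD1 was at 0.35.

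**Figure D4:**
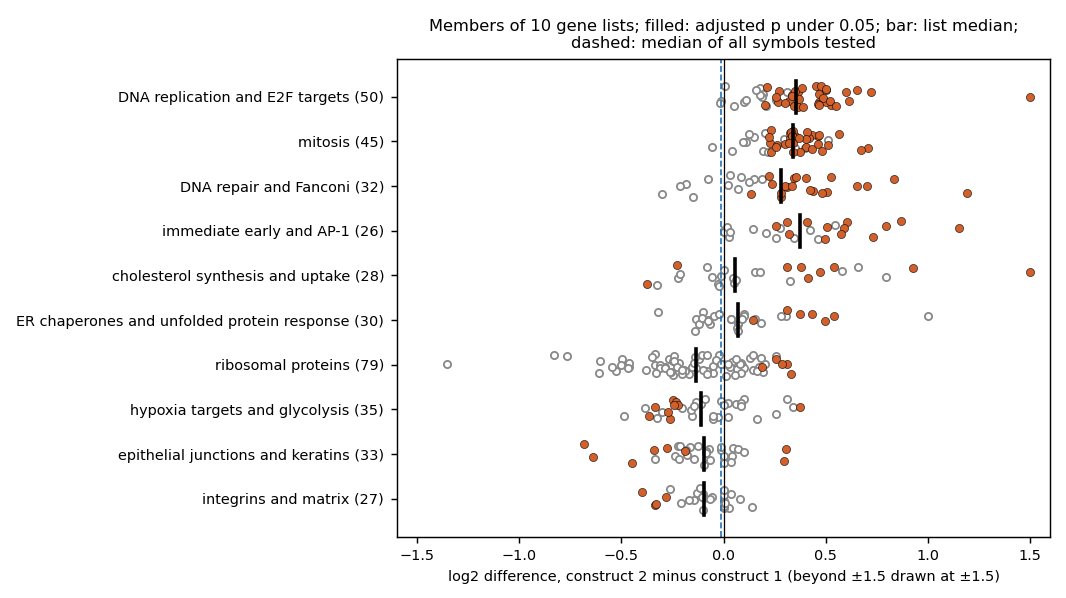
Log2 difference of construct 2 minus construct 1 for members of 10 gene lists (number tested in brackets), filled where the adjusted p was under 0.05, with the list median as a bar and the median of all symbols as a dashed line. The medians of the replication, mitosis, repair and immediate early lists lie between 0.28 and 0.38, and those of the other 6 lists near 0.

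Lower calls were more frequent than higher ones among genes of glycolysis and hypoxia, with 8 of 35 lower against 4.28% of all symbols, 1 higher, and a median of -0.11. NDRG1, a hypoxia-induced gene, was at 25.6 and 25.6 FPKM in the controls, 48.6 and 50.01 with construct 1, and 37.9 and 40.1 with construct 2 (difference -0.34 ± 0.053, adjusted p = 0.00654). LDHA, which makes lactate, was at 254 and 245, 295 and 305, and 258 and 239 (-0.27, adjusted p = 0.0134). PKM, pyruvate kinase, was at 337 and 341, 352 and 356, and 299.7 and 298 (-0.24, adjusted p = 0.00729). EGLN1, an oxygen-sensing hydroxylase, was at 10.5 and 9.87, 13.2 and 13.4, and 10.9 and 11.5 (-0.25, adjusted p = 0.0205). In these 4 genes 4C and 5C were close to each other. None of the 4, nor any other member of the list, passed without 4B or without 5B. The list median was -0.10 in 4C and -0.10 in 5C. With the length adjustment the list gave 4 lower calls.

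Epithelial genes gave 6 of 33 lower and 2 higher with construct 2, and integrin and matrix genes 4 of 27 lower and 0 higher, against 4.28% and 7.3% of all symbols. Without 4B, 5B, 4C and 5C the lower epithelial calls numbered 1, 2, 3 and 17, and those of integrins and matrix 1, 0, 1 and 12, against 0.389%, 0.36%, 4.65% and 29.3% of all symbols. KRT8, the main keratin of luminal cells, was at 380.1 and 383 FPKM in the controls, 527 and 527 with construct 1, and 358 and 417 with construct 2 (difference -0.45, adjusted p = 0.00833). Its partner KRT18, named after its value was seen, was at 213 and 210.4, 239.9 and 233, and 166 and 210.5 (-0.34, adjusted p = 0.045). ELF3, an epithelial transcription factor, was at 49.8 and 48.7, 69.3 and 71.0, and 88.4 and 84.1 (0.30, adjusted p = 0.00705), above the controls with either construct.

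The list of TGF-beta signalling and mesenchymal genes gave 4 of 37 higher and 4 lower, against 7.3% and 4.28% of all symbols, with a median of 0 in 4C and 0 in 5C. Without 4B it gave 0 higher and 1 lower, and without 5B 0 and 2. ID1, an inhibitor of helix-loop-helix factors, was at 147 and 146, 236 and 229, and 175 and 178 (-0.40 ± 0.041, adjusted p = 0.00145). LTBP3, which stores TGF-beta in the matrix, was at 9.35 and 9.31, 11.2 and 10.7, and 7.56 and 8.53 (-0.44, adjusted p = 0.00834). Among the higher members, the mesoderm factor TWIST1 was at 12.7 and 11.8, 14.1 and 14.4, and 17.7 and 17.2 (0.29, adjusted p = 0.015). The ligand TGFB2, close to the floor, was at 1.40 and 1.25, 1.90 and 1.84, and 2.67 and 2.41 (0.44, adjusted p = 0.00833).

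Of KRT8, KRT18, ELF3, ID1, LTBP3, TWIST1 and TGFB2, ID1 alone passed with any 1 library left out. The others did not pass without 4B (highest adjusted p 0.213), and KRT8, KRT18, ELF3, TWIST1 and TGFB2 did not pass without 5B. KRT18 was at -0.17 without 4C and -0.51 without 5C. In the androgen receptor list, given next, the shares of 9.09% higher and 9.09% lower stand beside 7.3% and 4.28% of all symbols. The androgen receptor list gave 3 higher and 3 lower of 33, and 0 calls without 4B or without 5B. KLK2, an androgen-regulated kallikrein, was at 6.53 and 6.13, 5.49 and 5.68, and 3.47 and 4.48 FPKM (-0.50, adjusted p = 0.0183), and did not pass without 4B or without 5B, and was at -0.32 without 4C.

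Since the target is a nucleoporin, the other pore genes were examined. Of 31 tested, 3 were higher and 0 lower, and the list median was -0.07 in 4C and 0.05 in 5C. NUP107, a scaffold subunit, was at 43.3 and 41.9 FPKM in the controls, 31.0 and 32.5 with construct 1, and 37.8 and 37.6 with construct 2 (difference 0.25, adjusted p = 0.0102). NDC1, the membrane nucleoporin that like POM121 sits in the envelope, was at 20.8 and 20.2, 15.9 and 15.9, and 19.5 and 18.6 (0.26, adjusted p = 0.0112). NUP155 was at 18.4 and 17.4, 13.1 and 13.6, and 17.9 and 16.0 (0.34, adjusted p = 0.0114). The share of 3 in 31 is near the 7.3% of all symbols. None of the 3 passed without 4B, and NDC1 and NUP155 did not pass without 5B. The list of importins, exportins and the Ran cycle gave 1 higher and 0 lower of 37, against 7.3% and 4.28% of all symbols.

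A few genes of RNA processing and defence differed in every fit that left out 1 library. SON, a splicing cofactor, was at 45.6 and 44.6 FPKM in the controls, 43.1 and 45.3 with construct 1, and 30.3 and 30.6 with construct 2 (difference -0.54 ± 0.048, adjusted p = 0.000766), low with construct 2 only. SRSF4, an SR-family splicing factor, was at 38.0 and 38.3, 37.0 and 36.1, and 46.5 and 45.7 (0.33, adjusted p = 0.00226), high with construct 2 only. NOC3L, a nucleolar factor of ribosome assembly, was at 9.55 and 9.33, 5.84 and 6.27, and 8.35 and 8.80 (0.50, adjusted p = 0.00146). OAS3, an interferon-induced sensor of double-stranded RNA, was at 9.70 and 9.45, 4.48 and 4.41, and 6.41 and 6.05 (0.49, adjusted p = 0.00331). These 4 passed with any 1 library left out. The splicing list as a whole gave 6 higher and 1 lower of 46, ribosome biogenesis 5 and 4 of 44, and interferon response 3 and 6 of 34, against 7.3% and 4.28% of all symbols. Without 4B each of these lists had 1 higher and 1 lower call. Without 5B they gave 1 and 1, 1 and 0, and 1 and 0, and without 4C 7 and 6, 6 and 5, and 2 and 3. Without 5C they gave 11 and 10, 6 and 26, and 5 and 10, against 14.6% and 29.3%.

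Ribosomal protein genes showed the disagreement of the construct 2 libraries most plainly. Of 79 tested, 5 were higher and 0 lower, against 7.3% and 4.28% of all symbols, but the median was 0.17 in 4C and -0.36 in 5C. Without 5C the count was 42 higher and 1 lower, and without 4C 4 higher and 45 lower. Their share of summed FPKM was 15.3% and 15.1% in the controls, 17.1% and 16.6% with construct 1, 18.7% in 4C and 12.2% in 5C. RPS29 was at 1335 and 1382 FPKM in the controls, 1626 and 1581 with construct 1, 2156 in 4C and 595 in 5C. RPL27 was at 2037 and 2007, 2188 and 2190.2, 2860.1 in 4C and 873 in 5C. Neither passed (adjusted p = 0.594 and 0.549), and both were chosen after their values were seen. RPL9, with 34.8 and 34.0, 39.8 and 40.6, and 52.3 and 48.7 (0.33, adjusted p = 0.00449), and RPS7, with 198 and 208, 233 and 233, and 279 and 298 (0.31, adjusted p = 0.0121), rose in both, though neither passed without 4B and RPS7 did not pass without 5B. No construct difference can be read for the list as a whole.

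MYC and GATA2 were followed by name. MYC, a growth-promoting transcription factor, was at 86.1 and 87.4 FPKM in the controls, 78.9 and 79.5 with construct 1, 56.4 in 4C and 78.8 in 5C (difference -0.25 ± 0.13, adjusted p = 0.219), so that only 4C was lower. GATA2, a transcription factor of prostate cancer cells, was at 52.8 and 54.3, 60.6 and 62.1, 42.2 in 4C and 58.3 in 5C (-0.31 ± 0.12, adjusted p = 0.133). With 4C as the only construct 2 library the differences were -0.49 for MYC and -0.54 for GATA2. With 5C as the only one they were -0.01 and -0.07. NF-kB and inflammatory genes gave 0 calls in 25, against 11.6% of all symbols in either direction.

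The same pair of constructs could be set side by side in DU145DR, in libraries that share no sample with those above. There, 3 of 13622 symbols (0.022%) differed between construct 2 and construct 1, 1 higher (0.00734%) and 2 lower (0.0147%), and 725 had an unadjusted p under 0.05, against 4050 in 22Rv1DR. The difference between the lines was itself tested. It passed in 162 symbols (1.19%), of which 130 (0.954%) had the larger value in 22Rv1DR and 32 (0.235%) the smaller. This count ran from 12 without 4B and 26 without 5B to 848 without 4C and 4282 without 5C. Across the 10628 symbols the 2 lines' differences had a correlation of 0.084, given as a description.

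Replication genes had a median construct difference of 0.04 in DU145DR, and 12 of 50 passed the line test, all with the larger value in 22Rv1DR. In mitosis the median was 0.02 and 9 of 45 passed, in repair 0.01 and 3 of 32, and in the immediate early list 0.01 and 2 of 26. Examples are MCM10 (0.72 in 22Rv1DR and 0.04 in DU145DR, adjusted p of the line test 0.0108), CCNA2 (0.57 and 0.02, 0.0108) and EXO1 (0.70 and 0.06, 0.0197). E2F1, at 0.52 and 0.06, did not pass (0.0554). G3BP2 (1.85 and 0.01, adjusted p = 0.000198), MCFD2 (0.81 and 0.04, 0.002) and C11orf74 (2.36 and 0.03, 0.002) had smaller adjusted p-values of the line test. Those 3 passed it with any 1 library left out, while MCM10, CCNA2 and EXO1 did not pass it without 4B (adjusted p = 0.0807, 0.0807 and 0.106), nor EXO1 without 5B (0.0848). The replication count in the line test was 1 without 4B, 3 without 5B, 27 higher and 1 lower without 4C, and 39 without 5C. The mitosis count was 0, 1, 25 (and 1 lower) and 37 in those fits. The repair count was 0, 0, 7 (and 2 lower) and 16 (and 2 lower), and the immediate early count 0, 0, 7 and 17.

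Symbols listed at 0 on some lanes and high on others were left out of the ranking of line differences, as were symbols without separated lanes. Among the other genes with a mean of at least 5 FPKM, the 5 lowest line differences that passed were of modest size. ZSCAN16, a zinc finger gene, was at 6.46 and 5.84 FPKM with construct 1 and 4.01 and 5.18 with construct 2 (-0.43 in 22Rv1DR and 0.47 in DU145DR, adjusted p of the line test 0.0408). ASB9 was at 44.0 and 42.4, and 28.7 and 32.4 (-0.50 and 0.26, 0.0197). GAR1, a protein of the snoRNP that guides pseudouridine formation, was at 29.6 and 32.1, and 22.2 and 23.7 (-0.43 and 0.12, 0.0328). FBXW4 was at 11.2 and 10.9, and 7.47 and 7.87 (-0.53 and -0.02, 0.0278), and TOMM40, the mitochondrial import channel, at 34.3 and 35.3, and 26.8 and 25.4 (-0.41 and 0.09, 0.0237). Within 22Rv1DR, ZSCAN16 passed only in full and without 5C (-0.25 without 4C), ASB9 did not pass without 4B, and GAR1 did not pass without 5B. None of these 5 passed the line test without 4B or without 5B.

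**Figure D5:**
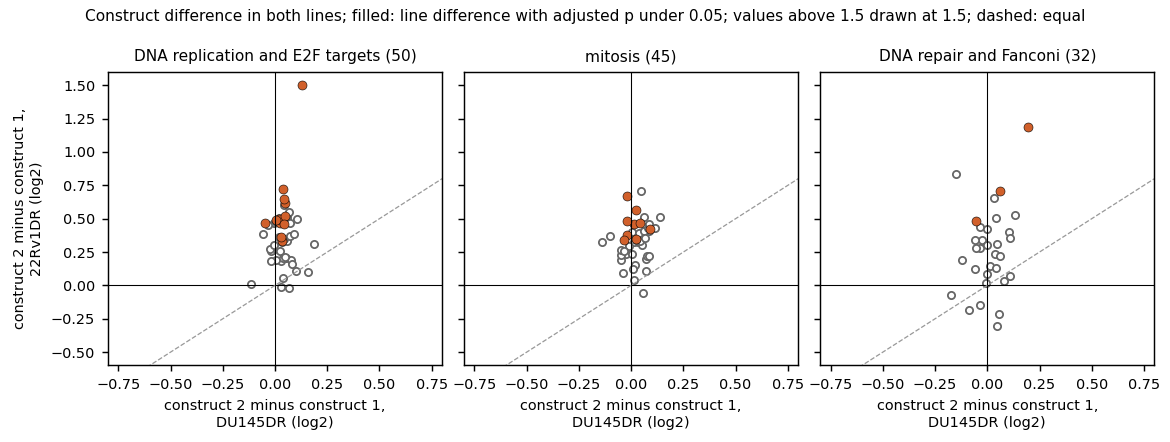
Construct 2 minus construct 1 in log2 FPKM for members of 3 lists, DU145DR on the horizontal and 22Rv1DR on the vertical axis, filled where the line difference had an adjusted p under 0.05, with equal values dashed. Members spread upward in 22Rv1DR and stay near 0 in DU145DR, and the 12, 9 and 3 filled points all lie above the dashed line.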

How the data were processed

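Poly(A) RNA of 12 libraries (2 lanes each) was sequenced with unstranded TruSeq v2 reagents, per the labels. TopHat and Cufflinks and the builds hg19 and mm10 are named in the submitters' processing notes, and their versions are not given in the sources used here. The authors deposited log2 FPKM with values of 1 FPKM or less set to 0. Read counts are not given, so depth is unknown. The table has 27026 lines and 25277 symbols, and 605 repeated symbols are represented by their most abundant line.

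Lanes were averaged. Symbols above the floor on both lanes of at least 2 libraries were tested with limma 3.58.1 (R 4.3.3; trend and robust options, 1 mean per group over all 12 libraries, 6 groups, 2-sided, Benjamini-Hochberg, threshold 0.05) after a test on simulated data. The members and the 52 gene lists were chosen with earlier results of these data known. Named genes are 5 fixed ones, the 15 highest and 15 lowest called differences without lane overlap and with at least 5 FPKM, up to 4 members of each list described by smallest p, and the 5 highest and lowest line differences. The highest and lowest line differences also had no lane overlap and at least 5 FPKM. All of these rankings by size left out symbols listed at 0 on some lanes and at a log2 FPKM of 3 or more on others. Genes outside this rule are marked. Some genes that the rule names are not reported here. Promoters are RefSeq entries of GRCh38.p14. Alternatives changed the libraries, pseudocount, filter, scaling, block, groups fitted, weights, lanes, limma options and, chosen after seeing the data, a length adjustment.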

Additional observations from a re-analysis of the deposited data

Results flagged for a closer look

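The following genes were picked up because their construct difference differed between the lines by the test of that difference itself (adjusted p under 0.05). Values are the difference of construct 2 minus construct 1 in 22Rv1DR minus the same in DU145DR, in log2 FPKM. Among genes that were low with construct 1 it was 2.32 for C11orf74, 1.83 for G3BP2, 1.30 for UBR1, 1.09 for ESYT1, 0.99 for RAD54L, 0.92 for RFWD3, 0.89 for LONRF1 and 0.77 for MCFD2. Further genes with large values were ANKHD1 at 1.25, ARMC1 at 1.15, TRIQK at 1.00 and CENPW at 0.75. ZSCAN16 at -0.90, ASB9 at -0.76, GAR1 at -0.54, FBXW4 at -0.51 and TOMM40 at -0.50 were the lowest among genes with a mean of at least 5 FPKM and separated lanes. Symbols listed at 0 on some lanes and high on others were left out of this ranking.

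Replication genes and their cyclin partners gave 0.68 for MCM10, 0.63 for CDC25A, 0.61 for DTL, 0.57 for CDC6, 0.52 for E2F2, 0.52 for CCND3, 0.48 for ORC1, 0.48 for CDT1, 0.44 for MCM4 and 0.30 for RRM1. Mitosis genes gave 0.54 for CCNA2, 0.50 for NUSAP1, 0.45 for CCNB1, 0.42 for ANLN, 0.33 for BUB1 and 0.32 for BUB1B, and repair genes 0.64 for EXO1 and 0.54 for CHEK1. Immediate early genes gave 1.41 for KLF2 and 0.49 for JUNB. Values were 0.63 for STMN1, 0.55 for OAS3, 0.45 for NOC3L, 0.39 for SLC7A1 and 0.33 for SRSF4, and -0.49 for SON and -0.36 for ID1. MYEOV, at 0.79, was listed at 0 with both constructs in DU145DR, so its value is that of 22Rv1DR alone.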

How the results depend on the processing

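The number of symbols that differed between the constructs in 22Rv1DR (1577) ran from 223 to 5983 when 1 of the 4 libraries was left out. With separated lanes (1482) it ran from 217 to 5818, and the line difference (162) from 12 to 4282. The POM121 difference ran from -0.20 (without 5C) to -0.060 (without 4C) and passed only without 5C. RPL27 was at 0.39 without 5C and -1.33 without 4C, opposite in sign. Fitting 22Rv1DR alone gave 32 symbols and 30 with separated lanes, and fitting the 4 libraries alone gave 12 and 8. Fewer libraries leave fewer degrees of freedom in these fits. Library weights gave 131, 128 with separated lanes and 33 between the lines. The lower-numbered lane alone gave 887, all separated, and 67 between the lines, and the higher-numbered lane 874, all separated, and 82. The cause was not tested.

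Libraries of the same number shared little deviation. The deviations of 4 and 5 correlated at -0.036 between the constructs, -0.086 between control and construct 1, and 0.083 between control and construct 2. These values cannot tell whether the numbers mark shared cultures or batches, which is not stated. With the replicate block, 1315 symbols differed, 25 between the lines and 1 in DU145DR. The 3 calls in DU145DR became 24 with a pseudocount of 0.1, 11 with a pseudocount of 1, 5 without the filter, 1 with a mean of at least 5 FPKM, 7 with library weights, and 7 and 6 on single lanes. Depth is unknown and sets no stated limit here.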

Other observations

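Some genes outside the lists described above also differed. STMN1 (stathmin), a protein that destabilises microtubules, was at 179 and 176 FPKM in the controls, 134 and 141 with construct 1, and 236 and 194 with construct 2 (difference 0.64 ± 0.082, adjusted p = 0.00296). Of 20 tubulin and stathmin genes 4 were higher and 0 lower, against 7.3% and 4.28% of all symbols. Fewer passed without 4B or without 5B, and the list median was 0.14 in 4C and 0.13 in 5C. SLC7A1, a carrier of arginine and lysine, was at 18.8 and 18.5, 10.7 and 10.8, and 14.6 and 14.3 (0.42, adjusted p = 0.00103), between construct 1 and the controls as the replication genes were. HES6, a helix-loop-helix factor of the Notch list, was at 16.0 and 15.8, 15.01 and 14.0, and 22.2 and 21.2 (0.58, adjusted p = 0.00418), high with construct 2 only. MYEOV was at 4.76 and 5.38, 5.53 and 5.62, and 10.7 and 8.71 (0.79, adjusted p = 0.00235), also high with construct 2 only. These 4 passed with any 1 library left out.

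PARP14, a mono-ADP-ribosyltransferase of the interferon response, was at 5.68 and 5.68, 5.82 and 6.14, and 4.29 and 5.01 (-0.37, adjusted p = 0.0189), and did not pass without 4B or without 5B. Among lists not described so far, mitochondrial ribosomal proteins gave 9 of 75 higher and 0 lower, respiratory chain subunits 6 of 64 and 0, and autophagy and lysosome genes 3 of 45 and 0, with medians of 0.05, 0.05 and -0.06, against 7.3% and 4.28% of all symbols. These shares are near that of all symbols. The lists had 0 calls without 4B, and 0, 1 and 0 higher without 5B. Their medians were 0.05, 0.13 and -0.06 in 4C, and 0.06, 0.05 and -0.02 in 5C. The 84 symbols in which 4C and 5C gave opposite calls included 75 that were higher in 4C and lower in 5C.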
